A study of Mus musculus with 7 samples.

Results

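Transcripts of the Hippo pathway and of its TEAD transcription factors were read in the developing mouse heart region of control embryos and of embryos in which Nodal is inactivated. The set holds 10 genes, found by their symbols among the 48526 genes of the deposited table: the co-activators Yap1 and Wwtr1, the DNA-binding factors Tead1, Tead2, Tead3 and Tead4, the TEAD cofactor Vgll4, the kinases Lats1 and Lats2, and the angiomotin Amotl2. All 10 were found and all 10 passed the filter on low values. Each of the 7 libraries comes from the microdissected cardiac region of 1 embryo of a mixed genetic background at embryonic day 8.5, when the heart tube forms and loops. The 4 control embryos were Hoxb1 +/+ with 1 conditional (flox) and 1 intact Nodal allele. The 3 mutant embryos carried Cre recombinase in 1 Hoxb1 allele (Hoxb1 Cre/+) with 1 conditional and 1 null Nodal allele. Controls carry neither Cre nor the altered Hoxb1 allele, so no difference between the groups can be assigned to Nodal alone. Hoxb1 is active in posterior heart precursors and in other tissues of the embryo, so Cre acts only where that locus has been active. Controls 1 and 3 and mutants 2 and 3 were female and of substage E8.5e per the file headers, while controls 2 and 4 and mutant 1 were male and of substage E8.5f. Sex and substage therefore cannot be told apart.

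In the Hippo pathway a cascade of kinases ends in LATS1 and LATS2, which phosphorylate the co-activators YAP1 and TAZ (the product of Wwtr1) and keep them out of the nucleus. Without that phosphorylation YAP1 and TAZ enter the nucleus and bind the TEAD factors, which recognise the MCAT element in the control regions of growth and muscle genes. VGLL4 competes with YAP1 for TEAD, and AMOTL2 holds YAP1 at cell junctions while its gene is itself a YAP1 target. The pathway acts mostly through phosphorylation and protein location, which RNA levels do not measure. In the mouse heart YAP1 and TEAD1 are needed for heart muscle cells to divide.

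The libraries held from 7155994 to 15122057 recovered reads, with a median of 12623459. Nodal had 9, 3, 6 and 0 reads in controls 1 to 4 and 0 in every mutant, so it does not check the label of control 4. Lefty2, a target of Nodal, ranged from 343 to 619 normalised counts in controls and from 1.52 to 4.88 in mutants (log2 fold change -6.66, SE 0.33, limma adjusted p = 0.000516). Hoxb1, whose locus carries Cre, stood at 546 to 726 in controls and 315 to 401 in mutants. All 15 markers of heart muscle were detected in every library, with a summed level of 52975 to 157379 normalised counts. Markers of neighbouring tissue differed between libraries: the 11 neural tube markers summed to 7919 in control 3, 7496 in mutant 3 and 5519 in mutant 2, against 3315 to 4243 in the other 4 embryos. Irx3 and Nes, high in every embryo, made up most of these lower sums, with 1792 and 1108 in control 1. Single markers placed control 1 differently: Sox1 was at 113, against 1.95 to 13.1 in males, and Pax6 at 65.7, against 74.3 to 113. The yolk sac endoderm markers ranged from 1282 in mutant 1 to 17565 in mutant 2. Of these markers Olig2, Neurog2, Nkx2-2 and Dbx1 were at 0 in at least 1 library. In whole tissue, fewer cells of a type and less RNA per cell cannot be told apart.

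Levels can be compared between genes only per length, and on the scale of normalised reads per kilobase of merged exons Tead2 stood far above the rest. Tead2 reached 1383 ± 50.4 (SD, n = 7), higher than 97.7% of the 15599 genes tested. Amotl2 followed with 367 ± 51.9, Tead1 with 352 ± 37.9 and Yap1 with 312 ± 13.6 (each SD, n = 7). The ranges of these 3 genes overlapped, so their order is not set by these data, but every embryo had more Tead2 than any of them. Wwtr1 came next with 138 ± 6.08, then Vgll4 with 134 ± 18.4 and Tead4 with 116 ± 15.4 (each SD, n = 7). The step from Yap1 down to Wwtr1 was the only other one between neighbours where the ranges over embryos did not overlap. The lowest were Lats1 with 91.2 ± 7.07, Tead3 with 79.3 ± 6.75 and Lats2 with 67.6 ± 10.6 (each SD, n = 7), the last higher than 50.9% of genes tested. The levels depend on the length used: over the longest transcript Yap1 came second at 546, and Vgll4 stood at 330 and Tead3 at 155, both above Wwtr1 at 140.0.

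**Figure D1:**
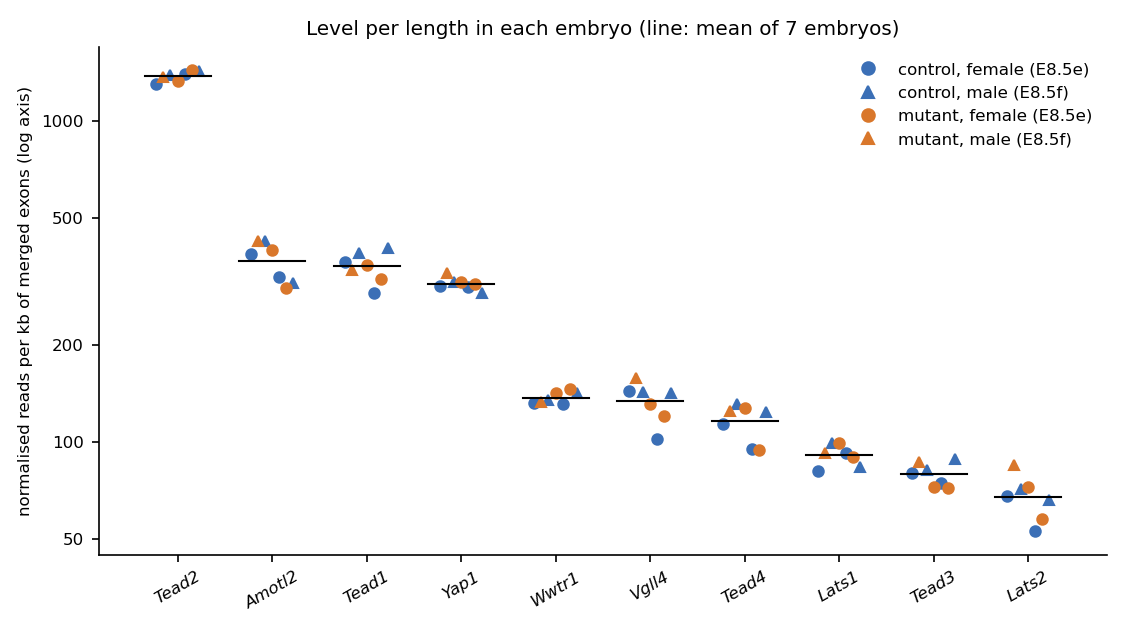
Level of each gene in each embryo, as normalised reads per kilobase of merged exons on a log axis; circles are female E8.5e and triangles male E8.5f embryos, blue for control and orange for mutant, and the line is the mean of 7 embryos. Tead2, with a mean of 1383, lies above every other gene in every embryo, and Lats2, with a mean of 67.6, is the lowest.

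The co-activators were among the steadiest of all genes tested. Yap1 (ENSMUSG00000053110, GRCm38 chromosome 9, 7931999 to 8004596, minus strand) was read at normalised counts of 2828, 2925, 2818 and 2704 in the control embryos, numbered 1 to 4 throughout, and at 3110.5, 2926 and 2876 in mutant embryos 1 to 3. Mutant 1 was the highest and control 4 the lowest, and the groups overlapped. The log2 fold change of Yap1 was 0.08 (SE 0.05, 95% interval -0.05 to 0.20, limma adjusted p = 0.967). Wwtr1 (ENSMUSG00000027803, chromosome 3, 57455649 to 57575910, minus strand) had 634, 645, 626 and 681 normalised counts in the controls, against 635, 680.4 and 700.1 in the mutants. Mutant 3 was the highest here, control 3 the lowest, and the groups again overlapped. Its log2 fold change was 0.05 (SE 0.06, 95% interval -0.09 to 0.20, limma adjusted p = 0.967). The SD of log2 levels over the 7 embryos was 0.06 for either gene. A smaller SD was found in 5.12% of genes tested for Yap1 and in 5.45% for Wwtr1, and the median SD of all genes was 0.19. Those shares are over all genes tested, including those with few reads, and no comparison with genes of like level was made. Within each embryo Yap1 exceeded Wwtr1 per length of merged exons by 2.05-fold to 2.53-fold. The size of this excess depends on the length used: the mean log2 ratio was 1.18 with merged exons and 1.96 with the longest transcript. With merged exons the log2 ratio was 1.17 ± 0.09 (SD, n = 4) in controls, against 1.19 ± 0.13 (SD, n = 3) in mutants, a gap smaller than the spread in either group.

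The 4 TEAD genes encode factors with the same DNA-binding domain, and their mixture differed little between genotypes. Tead2 (ENSMUSG00000030796, chromosome 7, 45215753 to 45233644, plus strand), the family member best known from early embryos, had 6227, 6684, 6697 and 6849 normalised counts in the controls, against 6591, 6398 and 6905 in the mutants. Control 1 was the lowest and mutant 3 the highest, and the groups overlapped. Its log2 fold change was 0.00 (SE 0.06, 95% interval -0.12 to 0.13, limma adjusted p = 0.996), and its SD of log2 levels, 0.05, was the smallest of the 10 genes. Tead1 (ENSMUSG00000055320, chromosome 7, 112679318 to 112906807, plus strand), the factor needed for the heart wall in mice, had 4939.6, 5272, 3953.5 and 5449 normalised counts in the controls, against 4647, 4842 and 4373 in the mutants. All mutants lay inside the control range, between the low value of control 3 and those of the other 3 controls. Its log2 fold change was -0.08 (SE 0.11, 95% interval -0.33 to 0.18, limma adjusted p = 0.967).

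Tead3 and Tead4 were the scarcer TEAD genes. Tead3 (ENSMUSG00000002249, chromosome 17, 28331671 to 28350817, minus strand), known from the human placenta, had 536, 550.1, 501 and 594 normalised counts in the controls, against 582, 486 and 481.2 in the mutants. Mutants 2 and 3 lay below all controls and mutant 1 within their range. Tead4 (ENSMUSG00000030353, chromosome 6, 128224288 to 128300823, minus strand), the factor of the trophectoderm of the blastocyst, had 409, 473, 343 and 447 normalised counts in the controls, against 448, 459.7 and 339 in the mutants. Control 3 and mutant 3 were low and the other 5 embryos formed a group above them. The log2 fold changes were -0.08 for Tead3 (SE 0.09, limma adjusted p = 0.967) and -0.01 for Tead4 (SE 0.14, limma adjusted p = 0.996). Of the summed per-length TEAD level, Tead2 made up 71.3% ± 2.63 (SD, n = 4) in controls, against 72.2% ± 2.20 (SD, n = 3) in mutants. Tead1 made up 18.6% ± 1.95 in controls and 17.8% ± 1.08 in mutants, Tead4 5.97% ± 0.608 and 6.03% ± 1.002, and Tead3 4.18% ± 0.151 and 4.01% ± 0.421 (SD, n = 4 and n = 3). Each of these gaps between genotypes was smaller than at least 1 of the SDs beside it. Control 3 had the lowest Tead1 share, 15.7%, and the highest Tead2 share, 75.2%. The co-activators together stood at 0.227 ± 0.0107 (SD, n = 4) of the per-length TEAD level in controls and at 0.241 ± 0.00329 (SD, n = 3) in mutants. This ratio was 0.237 to 0.243 in mutants and 0.213 to 0.236 in controls, so the lowest mutant lay just above the highest control. The gap exceeded both SDs, but the ratio was not tested. It was read beside the other paralogue ratios and TEAD shares, in all of which the groups overlapped. Of single genes tested, 5.78% had groups that did not overlap.

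Vgll4 and Lats2 were the members that varied most between embryos. Vgll4 (ENSMUSG00000030315, chromosome 6, 114860628 to 114969994, minus strand) had 776, 770.1, 551 and 766 normalised counts in the controls, against 854, 709 and 649 in the mutants. Control 3 stood apart from the other controls, mutant 1 was the highest, and the groups overlapped. The log2 fold change of Vgll4 was 0.05 (SE 0.15, 95% interval -0.29 to 0.38, limma adjusted p = 0.980), and without control 3 it was -0.07. Without mutant 1 it was -0.06, so its sign rested on single embryos.

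Of the kinase paralogues Lats1 was the steadier between embryos. Lats1 (ENSMUSG00000040021, chromosome 10, 7681214 to 7716460, plus strand) had 592, 724, 673 and 610.2 normalised counts in the controls, against 676, 727 and 657 in the mutants. All but mutant 2 fell inside the control range. Lats2 (ENSMUSG00000021959, chromosome 14, 57689662 to 57758388, minus strand), which is also a YAP1 target, had 473, 499, 367 and 459.7 normalised counts in the controls, against 593, 505 and 402 in the mutants. Mutants 1 and 2 lay above all controls and mutant 3 near the lowest, so the groups overlapped. The log2 fold changes were 0.08 for Lats1 (SE 0.09, 95% interval -0.12 to 0.28, limma adjusted p = 0.967) and 0.14 for Lats2 (SE 0.15, 95% interval -0.20 to 0.49, limma adjusted p = 0.967). With an embryo left out that of Lats2 ran from 0.01, without mutant 1, to 0.29, without mutant 3, and it was 0.05 without control 3. A term for neural tube level gave 0.30. From the lowest to the highest embryo Lats2 spanned 1.62-fold and Lats1 1.23-fold. The log2 ratio of Lats1 over Lats2 per length was 0.47 ± 0.24 (SD, n = 4) in controls, against 0.41 ± 0.26 (SD, n = 3) in mutants, from 0.12 in mutant 1 to 0.81 in control 3. With the longest transcript as length its mean was 0.04, near equal levels of the paralogues.

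Amotl2 (ENSMUSG00000032531, chromosome 9, 102716672 to 102733418, plus strand) had 2427, 2656, 2053 and 1965 normalised counts in the controls, against 2657, 2493 and 1901 in the mutants. High and low embryos occurred in both genotypes and the groups overlapped almost fully. The log2 fold change of Amotl2 was 0.04 (SE 0.14, 95% interval -0.28 to 0.37, limma adjusted p = 0.983). It was -0.0027, -0.02, -0.05 and -0.0067 when control 3, control 4, mutant 1 or mutant 2 was left out in turn.

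**Figure D2:**
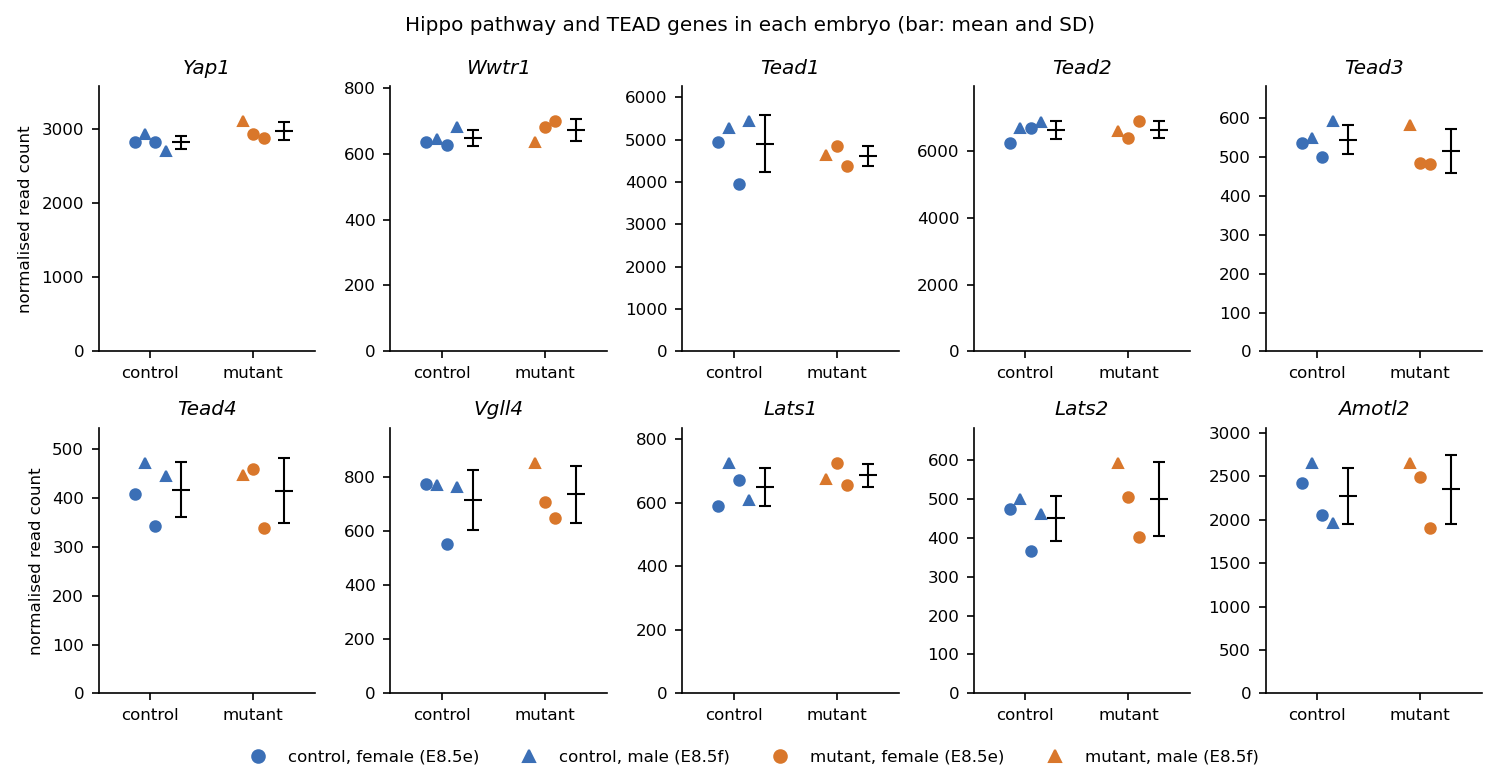
Normalised read count of each gene in each embryo, with the mean and SD of each genotype beside the points; circles are female E8.5e and triangles male E8.5f, blue for control and orange for mutant. Control and mutant points overlap for all 10 genes, and the low control point of Vgll4, 551, is control 3.

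Between genotypes, then, 0 of the 10 genes passed limma's test with Benjamini-Hochberg adjustment over 15599 genes, where 0.0128% of all genes tested passed, and no alternative fit called any of them. At an unadjusted p under 0.05 the count was again 0 of 10, against 3.83% of all genes. Mutants and controls overlapped for all 10, while 5.78% of all genes had groups that did not overlap. The fold changes leaned slightly upward, 7 higher and 3 lower, with 51.7% of all genes higher. Their median log2 fold change was 0.05 and that of all genes 0.01. The 95% intervals of the 10 genes all lay between 0.788-fold and 1.41-fold, so a larger mean difference than that is outside the interval of every gene. In the authors' deposited table the ratios of the 10 genes ran from 0.942 to 1.11 with p-values from 0.255 to 0.967, and 0 of the 10 are in the authors' deposited table of selected genes.

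The direction of several small differences depended on the fit. That of Tead2 was -0.0080 in log2 with edgeR and -0.0048 with DESeq2. Tead4 turned to 0.03 with sex as a term, to 0.05 without control 2, to 0.02 without control 4 and to 0.13 without mutant 3. In the female E8.5e embryos alone (2 controls and 2 mutants) Tead1 stood at 0.06, Tead4 at 0.08 and Amotl2 at -0.04. None of these values passed a test. The interaction of genotype and sex, which asks whether the genotype difference itself differs between sexes, was past the threshold for 0 of 10 genes (limma adjusted p = 0.99999 for each). At an unadjusted p under 0.05 it was again 0 of 10, against 2.5% of all genes, with 1 male mutant behind it.

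**Figure D3:**
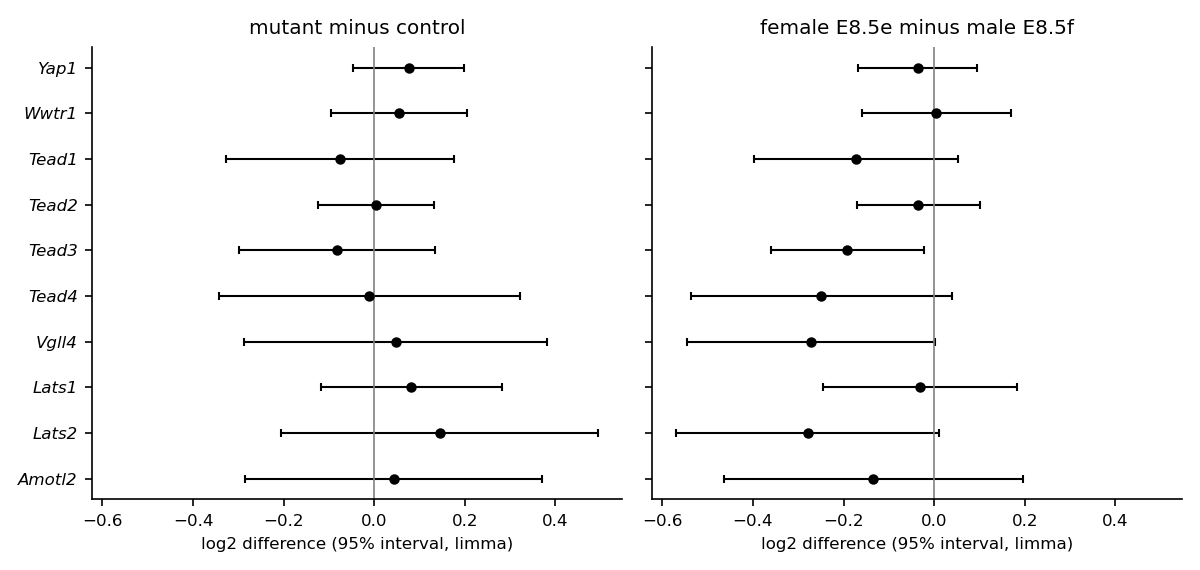
Log2 difference of each gene with its 95% interval from limma, mutant minus control on the left and female E8.5e minus male E8.5f on the right. All 10 genotype intervals include 0, and among the intervals by sex and substage that of Tead3, -0.36 to -0.02, does not.

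By sex and substage the genes leaned lower in female E8.5e embryos, though none of the set passed. With genotype as a term, 9 of the 10 genes were lower in female E8.5e than in male E8.5f embryos, where 51.6% of all genes were lower, and 0 of 10 passed the adjusted test, against 0.0449% of all genes. The median log2 difference was -0.15, and that of all genes -0.01. Tead3 had normalised counts of 501 ± 24.7 (SD, n = 4) in females and 575 ± 22.6 (SD, n = 3) in males. Every female lay below every male, which held for 5.64% of all genes. The log2 difference of Tead3 was -0.19 (SE 0.07, limma adjusted p = 0.430), and it was the 1 gene of the 10 at an unadjusted p under 0.05, against 10.5% of all genes. Log2 differences of -0.28 (Lats2, SE 0.12), -0.27 (Vgll4, SE 0.12), -0.25 (Tead4, SE 0.12) and -0.17 (Tead1, SE 0.10) had limma adjusted p of 0.483, 0.477, 0.522 and 0.570. Amotl2 stood at -0.13 (SE 0.14), and Yap1, Wwtr1, Tead2 and Lats1 between -0.04 and 0.00.

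The number of genes this comparison called depended on 1 control embryo and on the tool. With all embryos limma called 7 genes and DESeq2 177, with 0 members among either. Without control 1 the limma count over all genes was 681, which is 4.37% of genes tested, and Vgll4 was the 1 member among them (log2 difference -0.40, limma adjusted p = 0.0346). Over the other alternatives the adjusted p of Vgll4 did not pass. Control 1 is the female with the lowest neural tube sum, 3601, and the highest heart muscle sum of the females, 115387. The other 3 females had neural tube sums of 5519 to 7919 and heart muscle sums of 52975 to 78340.2. Males had 3315 to 4243 for the neural tube and 121498 to 157379 for heart muscle. The 10 yolk sac endoderm markers summed to 6017 to 17565 in females and 1282 to 10061 in males, and the 8 blood markers to 48.1 to 131 and 194 to 532. With the mean neural tube level as a term, the female to male log2 difference was 0.05 for Tead1, 0.00 for Tead4, 0.14 for Vgll4, 0.09 for Lats2 and 0.18 for Amotl2, and it was -0.10 for Tead3. That mean log2 level was 4.95 in control 1 and 7.17 to 7.79 in the other 3 females, against 4.19 to 4.67 in males. Since every female lay above every male, this fit can hardly part sex from neural tube level. Over the alternatives that kept every embryo, the lowest log2 difference was -0.15 for Tead2 and -0.22 for Lats1. With limma as reported they stood at -0.04 and -0.03. The part of tissue composition in the differences by sex and substage was not tested beyond these fits.

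Several genes were low in the same embryos. Control 3 and mutant 3 were the lowest 2 embryos for 4 of the 10 genes, Tead1, Tead4, Vgll4 and Lats2, while that pair was lowest for 11.6% of all genes tested. The pair was singled out after the values were seen. In log2 units from the mean of the 7 embryos, control 3 stood at -0.27 for Tead1, -0.27 for Tead4, -0.38 for Vgll4 and -0.34 for Lats2. Mutant 3 stood at -0.12, -0.29, -0.15 and -0.21 for the same genes. These are also the embryos with the highest neural tube sums, 7919 and 7496, and the highest paraxial mesoderm sums, 3846 and 4373 over 9 markers. Their yolk sac sums, 6643 and 6017, lay inside the range of the other 5 embryos, and their blood sums, 48.1 and 66.9, were the lowest. Also lowest in this pair were the foregut endoderm sums, 4024 and 4082 against 4670 to 5336 in the other 5 embryos. The same held for surface ectoderm, 7942 and 8937 against 11964 to 14372.5, and for endothelium, 6369 and 7234 against 7605 to 10762. Mutant 2 stood at 0.03, 0.15, -0.02 and 0.12 for the same 4 genes, near or above the mean. Its sums were 5519 for neural tube, 58431 for heart muscle, 5021 for foregut endoderm, 11964 for surface ectoderm and 7605 for endothelium. At the other end mutant 1 was the highest embryo for Yap1, Vgll4, Lats2 and Amotl2. The part of neighbouring tissue in this pattern was not tested. Among 13365 other protein-coding genes, the pattern most like that of Vgll4 over the 7 embryos belonged to Nectin2, Clu and Emc3, with root mean square differences of 0.02, 0.03 and 0.04 in centred log2 level. For Lats2 they were Bcl9l, Arhgef5 and Tram2 (0.04, 0.06 and 0.07) and for Amotl2 Snap29, Nabp1 and Dgkk (0.05, 0.06 and 0.07).

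**Figure D4:**
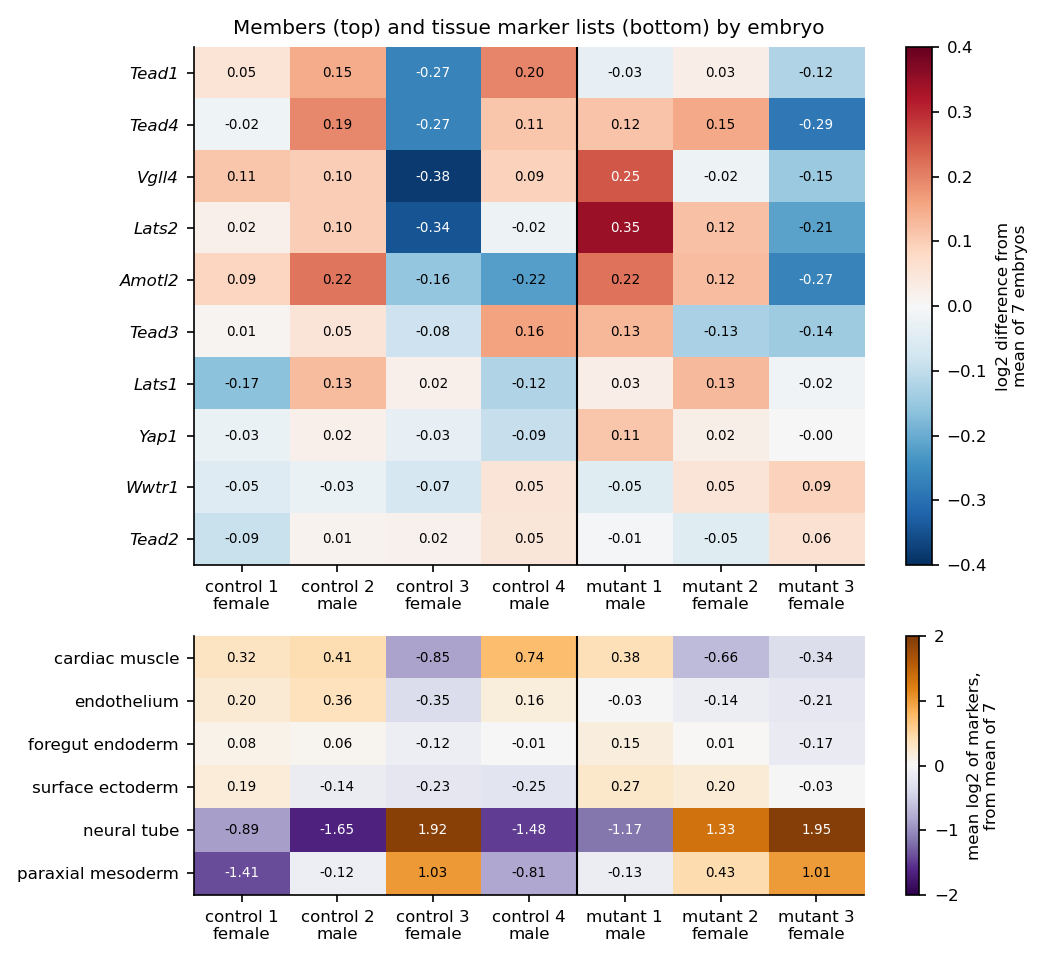
Upper panel, log2 level of each gene in each embryo as the difference from its mean over 7 embryos; lower panel, the same for the mean log2 level of tissue marker lists, with the black line between controls and mutants. Control 3 is blue for Tead1, Tead4, Vgll4 and Lats2 (-0.27 to -0.38), and control 3, mutant 2 and mutant 3 are the embryos with high neural tube levels.

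RefSeq promoter windows (GRCm38.p6, 250 bases before to 50 after a start) were present for 8 of the 10 genes, in 12 windows; Tead1 and Tead4 were not matched. The core of the MCAT element, GGAATG on the strand of the gene or CATTCC for the other strand, was searched in each 300-base window. It was found in 6 of the 8 genes and in 8 of 12 windows. Of all 32851 windows 14.7% held it, and of all 27025 genes 16.6%. Not every gene of the pathway lists had a window. The core was found in 7 of 15 YAP and TAZ targets with a window (22 listed) and in 5 of 16 upstream regulators (23 listed). Among cofactors it was found in 2 of 6 (9 listed) and in the kinase core in 2 of 14 (17 listed). Genes differ in their number of windows, and more windows give more room for a match. The list of targets was put together with Amotl2 and Lats2 in it, and some windows of 1 gene overlap. A match is a run of letters and not a binding site. The windows shown are those of the co-activator Yap1, of the 3 genes that varied most between embryos (Vgll4, Lats2 and Amotl2) and, as a window with no match, of the steadiest gene, Tead2. They read 5′ to 3′ on the strand of the gene, with matches in capitals. Yap1 is chr9:8004547-8004846 (minus strand), Vgll4 chr6:114969154-114969453 (minus), Lats2 chr14:57746074-57746373 (minus), Amotl2 chr9:102717554-102717853 (plus) and Tead2 chr7:45215542-45215841 (plus).
Yap1: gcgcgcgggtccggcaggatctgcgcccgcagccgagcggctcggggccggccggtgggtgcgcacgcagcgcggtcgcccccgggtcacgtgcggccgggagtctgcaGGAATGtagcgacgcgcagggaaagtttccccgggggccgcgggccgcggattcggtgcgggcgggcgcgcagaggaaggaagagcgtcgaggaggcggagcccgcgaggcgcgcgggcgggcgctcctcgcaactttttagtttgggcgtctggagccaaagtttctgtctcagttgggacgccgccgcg
Vgll4: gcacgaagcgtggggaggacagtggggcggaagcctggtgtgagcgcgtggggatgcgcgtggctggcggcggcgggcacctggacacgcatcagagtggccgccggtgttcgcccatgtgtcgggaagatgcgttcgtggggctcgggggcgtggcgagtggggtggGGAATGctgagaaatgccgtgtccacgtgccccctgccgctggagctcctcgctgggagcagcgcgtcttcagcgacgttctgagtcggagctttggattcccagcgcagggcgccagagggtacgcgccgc
Lats2: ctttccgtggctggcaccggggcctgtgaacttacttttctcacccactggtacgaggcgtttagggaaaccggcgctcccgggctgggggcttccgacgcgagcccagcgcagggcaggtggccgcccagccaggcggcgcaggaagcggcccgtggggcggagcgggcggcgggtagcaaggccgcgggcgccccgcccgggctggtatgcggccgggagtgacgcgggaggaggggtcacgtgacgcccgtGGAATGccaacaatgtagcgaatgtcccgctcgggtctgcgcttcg
Amotl2: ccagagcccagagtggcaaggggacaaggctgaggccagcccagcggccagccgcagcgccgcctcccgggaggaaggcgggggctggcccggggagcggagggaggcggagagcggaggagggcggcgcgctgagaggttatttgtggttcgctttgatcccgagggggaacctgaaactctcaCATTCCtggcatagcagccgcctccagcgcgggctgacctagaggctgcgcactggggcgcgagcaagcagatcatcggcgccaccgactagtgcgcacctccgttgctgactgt
Tead2: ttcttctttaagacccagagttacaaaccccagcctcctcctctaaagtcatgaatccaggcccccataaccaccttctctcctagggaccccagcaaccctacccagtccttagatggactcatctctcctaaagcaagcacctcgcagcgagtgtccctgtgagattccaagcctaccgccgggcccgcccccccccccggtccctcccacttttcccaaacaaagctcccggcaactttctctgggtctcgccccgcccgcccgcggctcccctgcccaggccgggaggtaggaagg
The first base of the match lies at -141 from the start in Yap1, -82 in Vgll4, 5 in Lats2 and -65 in Amotl2, the last on the other strand, counting the start as 1 and the base before it as -1. Lats2 had a second window with no match, and Lats1 had none in its window.

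In the rest of the pathway no gene passed the genotype test with limma. Of 17 genes of the kinase core, 8 were higher and 9 lower in mutants, a median log2 fold change near 0 (-0.01), 0 past the adjusted test and 2 at an unadjusted p under 0.05, Stk4 and Map4k1, where 3.83% of all genes were. Mutants and controls did not overlap for Stk4, Taok2 and Map4k1, as for 5.78% of all genes. Stk4, the MST1 kinase that activates the LATS kinases, had 1180.0, 1216, 1159 and 1211 normalised counts in the controls, against 1299, 1368 and 1289.9 in the mutants. All mutants lay above all controls, by 0.15 in log2 (SE 0.05, limma adjusted p = 0.967). Map4k1, of a kinase family that can phosphorylate the LATS kinases in parallel, lay lower in all mutants, at 119.5 to 153 against 154 to 192 (log2 fold change -0.31, SE 0.13, limma adjusted p = 0.967). Taok2 and Taok3, which activate Stk4, differed by 0.12 (SE 0.06) and -0.32 (SE 0.15) in log2 without passing. Per length, Map4k4 was the most abundant of the kinases in controls, at 548 ± 38.3 (SD, n = 4), followed by Mob1a, the LATS co-activator, at 209 ± 28.6 and Stk4 at 203 ± 4.58 (SD, n = 4).

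Among 23 upstream regulators 14 were higher and 9 lower, a median of 0.04 in log2 fold change and 0 past the adjusted or the unadjusted test. Mutants and controls did not overlap for Nf2, at 2165 to 2206 against 1948 to 2150 normalised counts, as for 5.78% of all genes. The members with the smallest p were the LIM proteins Limd1 (0.17, SE 0.08) and Ajuba (0.20, SE 0.13), which restrain LATS, the phosphatase Ptpn14 (0.19, SE 0.10) and the scaffold Wwc1 (0.18, SE 0.10), each a log2 fold change with a limma adjusted p of 0.967. Amot, the founding angiomotin, led this list in controls per length at 612 ± 85.8 (SD, n = 4), ahead of Ajuba at 530 ± 69.6 and the kinase Csnk1d at 519 ± 19.3 (SD, n = 4). Amot had normalised counts of 4165 in control 3 and 4048 in mutant 3, the lowest of its 7 values, while the other 5 embryos ran from 5034 to 6027.

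The largest difference in the lists was that of the TEAD cofactor Vgll3. The controls had 246, 73.3, 273 and 72.0 normalised counts of it, against 36.1, 38.1 and 18.1 in the mutants. All mutants lay below all controls, and control females (1 and 3) stood above control males (2 and 4). The log2 fold change of Vgll3 was -2.19 (SE 0.55, 95% interval -3.46 to -0.93, limma adjusted p = 0.967). With DESeq2 on recovered reads it was -2.45 and passed (adjusted p = 0.0101), as did 0.0513% of the genes DESeq2 tested, and with edgeR it was -2.45 and did not (adjusted p = 0.973). Over the other fits the limma adjusted p ranged from 0.226, without control 3, to 0.9997. Vgll1 and Vgll2, of the same family, were at 0 to 3.46 and at 6.33 to 90.8 normalised counts. Of 8 cofactors tested, 6 were higher and 2 lower, and 0 passed with limma, with 2 at an unadjusted p under 0.05 (Vgll3 and Ncoa3), against 3.83% of all genes. Vgll3 was the 1 gene of the 4 lists that any fit called between genotypes. Ncoa3, a nuclear receptor co-activator that also binds TEAD, was above all controls in every mutant, at 1214 to 1467 against 1011 to 1158 (log2 fold change 0.27, SE 0.08, limma adjusted p = 0.967). Vgll3 and Ncoa3 were the tested cofactors whose groups did not overlap, as for 5.78% of all genes. Ctbp2 and Ncoa2 followed at 0.08 (SE 0.06) and 0.12 (SE 0.10). In the authors' deposited table of selected genes, which holds 3.08% of the genes tested here, 3 genes of these lists appear: Vgll3, Ncoa3 and Map4k1. For Vgll3 the authors give a ratio of 0.185 with a DESeq2 p of 2.07e-06 and an adjusted p of 0.0168.

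**Figure D5:**
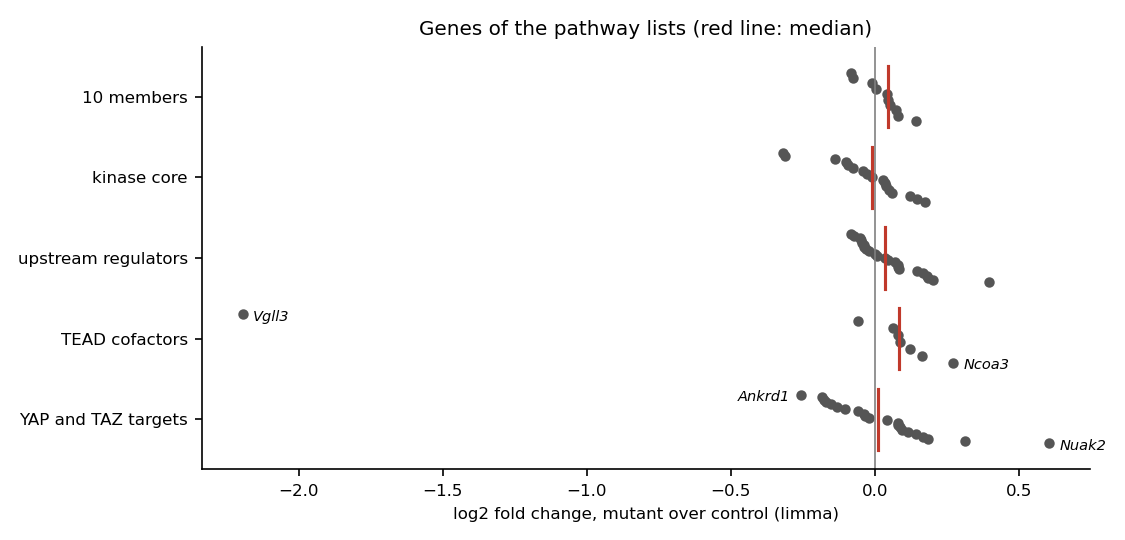
Log2 fold change from limma, mutant over control, of the 10 genes and of each tested gene of 4 pathway lists, with the median of each as a red line. Points cluster within 0.4 of 0 apart from Vgll3 at -2.19 and Nuak2 at 0.61, and neither passed the limma test.

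Genes known as YAP and TAZ targets were evenly divided. Of 22 measured, 11 were higher and 11 lower in mutants, the median log2 fold change was 0.01, and 0 passed the adjusted or the unadjusted test. The list includes Amotl2 and Lats2. Ankrd1, a heart muscle ankyrin repeat protein and the most abundant target per length in controls, had 5122, 4658, 1409 and 4875 normalised counts in the controls, against 4575, 2347 and 2498 in the mutants. The low embryos were control 3 and mutants 2 and 3, which also had the highest neural tube and lowest heart muscle sums, and the part of composition was not tested. The log2 fold change of Ankrd1 was -0.26 (SE 0.47, limma adjusted p = 0.969). Cyr61, a matrix protein, was low in the same 3 embryos, with 384 in control 3, 455 in mutant 2 and 373 in mutant 3 against 581 to 716 in the other embryos. Nuak2, a kinase, ran the other way, with 323, 248 and 270.5 in those 3 embryos against 78.5 to 117 elsewhere (log2 fold change 0.61, SE 0.50, limma adjusted p = 0.967). Dock5 had 842, 767 and 748 in the same 3 embryos against 395 to 515. Targets thus went in both directions in the same embryos. By sex and substage 16 of the 22 were lower in females, against 51.6% of all genes, with a median log2 difference of -0.10, and 4 were at an unadjusted p under 0.05, against 10.5% of all genes. Nuak2 passed by DESeq2 (log2 difference 1.25, adjusted p = 0.0163), a fit that called 177 genes here. With limma on all embryos Nuak2 did not pass (log2 difference 1.14, limma adjusted p = 0.403). Without control 1, where 4.37% of all genes were called, limma called Nuak2 (1.51, adjusted p = 0.0101), Dock5 (0.69, adjusted p = 0.00947), Ankrd1 (-1.34, adjusted p = 0.00975) and Cyr61 (-0.73, adjusted p = 0.0145). In that fit it also called Fat4 of the upstream regulators, a large cadherin (1.08, adjusted p = 0.0226). Tgfb2, a secreted growth factor, had 1031 in control 3 and 1493 to 2589.9 in the other embryos.

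Some genes share their location with another. Tead2 overlaps exons of Cd37 on the opposite strand, which had at most 13.7 normalised counts, and Yap1 overlaps Gm20416, which had at most 3.36. Lats2 shares exons with Gm49361 on the same strand, which is not among the genes of the deposited data. Whether that overlap affected the count of Lats2 cannot be told.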

How the data were processed

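RNA sequencing libraries were made from 7 single embryos (4 control, 3 mutant; groups from the genotype labels). Per the labels' protocols, 20 ng of total RNA entered an oriented poly-A library kit with 15 to 18 PCR cycles and paired reads of 130 bases. The submitters' processing notes name HISAT2, featureCounts, Subread, DESeq2, edgeR, limma and GRCm38, with no version or role. The annotation release and strand setting are likewise not given in the sources used here.

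The authors deposited a normalised signal per gene and library, here called normalised counts. Within a tolerance of 0.1 every value above 0 (100%) was a whole multiple of 1 step per library, which gave back whole reads. The authors' table also holds, per the file headers, a ratio of mutant to control and a p-value for each gene. Library totals are given with the results; depth limits the genes with few reads.

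The 15599 genes that reached 10 normalised counts in 3 or more libraries were tested with limma 3.58.1 in R 4.3.3 (trended empirical Bayes) on log2(normalised count + 1), with Benjamini-Hochberg adjustment over all genes and a threshold of 0.05. Genotype was fitted alone, sex with genotype as a term, and then their interaction. Low genes have understated fold changes on this log2 scale. edgeR 4.0.16, DESeq2 1.42.0 and limma-voom on recovered reads, other scalings, pseudocounts, filters, covariates and left-out embryos were alternatives. The fits were run on simulated data with changes larger than those of the 10 genes and no differences in tissue content. That run does not show how well small differences are found. Coordinates and exon lengths come from GENCODE M21 (GRCm38), and promoter windows from RefSeq.

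The members and lists were chosen with earlier results of these data known. Named genes are the 10 members, the 4 with the smallest genotype p and the 3 with the highest per-length control level of each list, 3 label checks, and for the 3 most variable members the 3 genes of most similar pattern, beside genes that overlap a member. Vgll1, Vgll2, Nf2 and genes called only in an alternative were added after their values were seen. Not every gene taken by this rule is reported here.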

Additional observations from a re-analysis of the deposited data

Results flagged for a closer look

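Vgll4 had 551 normalised counts in control 3, apart from the other 3 controls at 766 to 776, by Dixon's criterion for a value far from its group. In control 4 the log2 ratio of Yap1 over Wwtr1 was 1.04, below the 1.203 to 1.226 of the other controls by the same criterion. In control 3 the log2 ratio of Tead1 over Tead2 was -2.26, where the other controls stood at -1.85 to -1.83. The shares of the summed TEAD level hold the same values: Tead1 made up 15.7% and Tead2 75.2% in control 3. These are 5 of 36 groups examined, which were the controls and the females for each item, and all 5 are groups of controls. Among the females, which include control 3 but not control 4, the same criterion marked no value of any item. Chance alone marks about 1 in 20 of separate groups. The groups here share embryos and values, so the 5 cannot be set against that rate.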

How the results depend on the processing

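No gene of the set passed the genotype test under any of the 19 alternatives run (lowest adjusted p 0.296, Tead1). The count of genes called between genotypes, 2 as reported, was 1 with edgeR, 8 with DESeq2, 0 with voom (limma), 1 with sex as a term and 0 in females alone, and 1 to 9 with an embryo left out (9 without control 3). By sex and substage it was 7 as reported, 11 at a threshold of 0.1, 177 with DESeq2 and 5 to 681 with an embryo left out. Log2 fold changes that changed sign were those of Tead2 (-0.0080 edgeR, -0.0048 DESeq2, -0.0069 voom, -0.0023 library-size scaling, -0.0021 neural tube level), Tead4 (0.031 sex, 0.076 females alone, 0.12 neural tube level, 0.065 heart muscle level), Tead1 (0.058 females alone, 0.022 neural tube level), Tead3 (0.0012 neural tube level) and Amotl2 (-0.036 females alone). With an embryo left out, Tead2 ran from -0.026 to 0.029, Tead4 from -0.10 to 0.13, Vgll4 from -0.073 to 0.14 and Amotl2 from -0.053 to 0.19. By sex and substage, library-size scaling gave 0.0019 for Yap1, 0.0031 for Tead2 and 0.0067 for Lats1. The neural tube level gave -0.023 for Wwtr1, 0.053 for Tead1, 0.0013 for Tead4, 0.14 for Vgll4, 0.091 for Lats2 and 0.18 for Amotl2, and the heart muscle level 0.011 for Tead1 and 0.021 for Vgll4. Mean log2 levels of either marker list did not overlap between females and males, so these fits can hardly part sex from tissue level. With an embryo left out, Yap1 ran from -0.076 to 0.0057, Wwtr1 from -0.073 to 0.043, Lats1 from -0.083 to 0.040 and Vgll4 from -0.40 to -0.16. The cause of these changes was not tested. Over the longest transcript, levels per kilobase were 546 for Yap1, 480.0 for Tead1, 1950 for Tead2, 155 for Tead3, 136 for Tead4, 330 for Vgll4, 90.7 for Lats2 and 521 for Amotl2. The log2 ratios were then 1.96 (Yap1 over Wwtr1) and 0.036 (Lats1 over Lats2), the shares 5.69% (Tead3) and 4.98% (Tead4), and co-activators over TEAD genes 0.252. These follow from the shorter lengths; coding length was not run. No paired analysis was possible because the labels give no replicate numbers that link embryos across genotypes.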
